A study of Mus musculus with 2 samples.

Results

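The genes described here are 104 mouse genes named as solute carriers, which were selected on measured levels. A gene was a member if its name began with Slc, a family number, the letter a and a member number, and if it had a level of at least 5 TPM in both libraries. The rule leaves out Slc11a1 and Slc40a1, which passed the same threshold. Of 55450 named genes in the tables, 350 had a matching name, and 106 of those 350 (30.3%) reached 5 TPM in both libraries, against 31.0% of the 21938 nuclear protein-coding genes. The share of solute carrier genes that passed was thus close to the background. TPM is a read level divided by transcript length and scaled to the same total in every library, so it can be compared between genes. Pairs of values without a label give replicate 1, then replicate 2. Because TPM chose the members, their levels are a description and carry no test.

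RNA came from bone-marrow-derived macrophages of C57BL/6J mice, phagocytes grown in culture from marrow progenitors. Both libraries came from cells given lipid A at 100 ng/ml for 12 h, followed by a washout of 12 h and a second exposure to 100 ng/ml for 25 min. Lipid A is the membrane anchor of bacterial endotoxin and activates the receptor TLR4. Total RNA of the nucleoplasm, called nuclear elsewhere in the labels, was depleted of ribosomal RNA and sequenced. The 2 libraries are replicates 1 and 2 of 1 group. They carry the same donor entry and differ in starting RNA, 500 ng in replicate 1 and 1000 ng in replicate 2, so replicate and starting amount cannot be told apart and the spread between them may be technical. Sex and age were not collected, per the labels. Untreated cells, cells stimulated once and the cytoplasm were not analysed here, so none of the values below is a response to lipid A.

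Solute carriers are membrane proteins that move small molecules across the plasma membrane and the membranes of organelles, either down a gradient or coupled to sodium, protons or a counter-substrate. They set what a macrophage can take up, recycle from digested material in the lysosome, exchange with its mitochondria and release. The RNA measured here is nuclear, so its level reflects synthesis, processing and export of the messages and not the amount of transporter protein.

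The libraries held 20130376 expected counts in replicate 1 and 19566152 in replicate 2 on named genes. All 8 macrophage markers passed 5 TPM in both libraries, with Lyz2 at 1640 and 1365 TPM and Adgre1 at 691 and 675 TPM. The 5 lymphocyte markers summed to 0.24 and 0.23 TPM, with Cd3e and Cd3g at 0 counts, and all 5 neutrophil markers were at 0. The nuclear RNAs Malat1 and Neat1 had 39250 and 18420 TPM and 1040 and 1145 TPM. In bulk RNA, fewer cells that express a gene and less RNA per cell cannot be told apart.

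The 104 members together held 3773 (replicate 1) and 3611 TPM (replicate 2), which was 1.28% and 1.32% of the TPM of nuclear protein-coding genes. Their median level was 21.2 (replicate 1) and 19.8 TPM (replicate 2), against 19.5 and 16.3 TPM for all 6798 protein-coding genes past the same threshold. A few genes carried much of the total, with the 5 highest holding 28.2% and 31.4% of the members' TPM and the 10 highest holding 40.02% and 41.3%. The 5 were Slc6a6, Slc15a3, Slc3a2, Slc43a2 and Slc31a2, the only members above 100 TPM in both libraries. Between 10 TPM and this top lay most of the others, since 80 members reached 10 TPM in both libraries and 14 reached 50 TPM. Member counts ran between 117 and 34196 expected counts in replicate 1 and between 132 and 29735 in replicate 2. Of the matched genes, 183 stayed under 1 TPM in both libraries and 100 had 0 counts in both, which allows up to 3 counts in a library, or 0.149 and 0.153 CPM, counts scaled to library size alone.

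**Figure D1:**
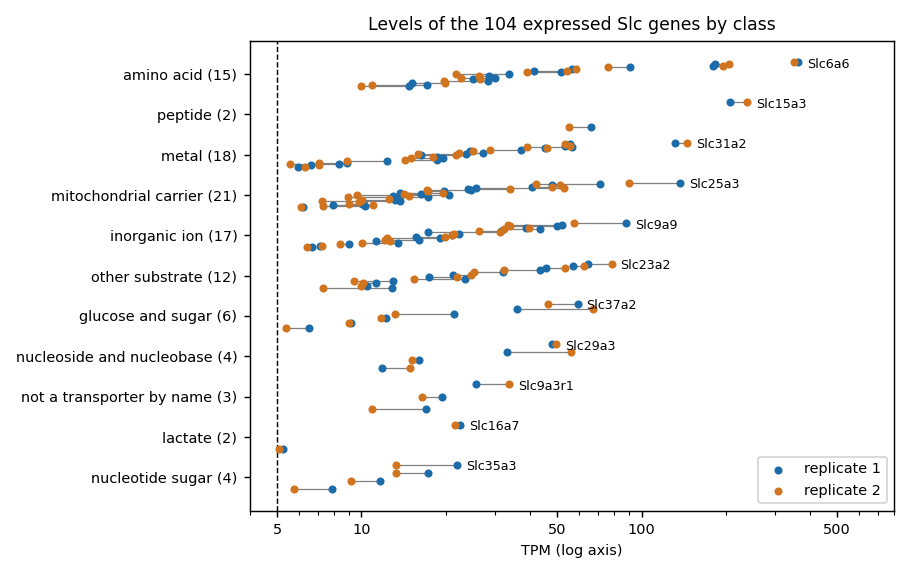
Level in TPM (log axis) of each of the 104 members in replicate 1 and replicate 2, by class with the number of members in brackets, a grey line joining the 2 replicates of a gene; the dashed line marks the threshold of 5 TPM. The amino acid class holds 3 of the 5 members above 100 TPM in both libraries, and the lactate class holds 1 member at 22.4 and 21.5 TPM and 1 at the threshold.

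Classes were assigned by family. The 5 classes of glucose and sugar, amino acid, nucleoside and nucleobase, metal, and lactate transporters held 45 members, and the other classes held 59. Amino acid transporters gave the largest share of the members' TPM, 30.7% in replicate 1 and 31.4% in replicate 2, with 15 members. The 18 metal transporters held 15.1% and 14.8%, the 4 nucleoside and nucleobase transporters 2.89% and 3.76%, the 6 sugar transporters 3.83% and 4.23%, and the 2 lactate transporters 0.734% and 0.737%. Of 34 matched metal transporter genes, 20 reached the threshold including the pair left out, as did 4 of 8 nucleoside genes, 2 of 6 lactate genes, 15 of 57 amino acid genes and 6 of 23 sugar genes. These counts were not tested against each other or against the 31.0% of all coding genes, and the nucleoside and lactate classes are small.

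Relative to the median of all members on the log2(TPM + 1) scale, the median amino acid transporter stood 0.52 ± 0.17 higher (mean and SD of 2 libraries) and the median nucleoside transporter 0.29 ± 0.24 higher. The median metal transporter lay at the median of all members, 0.01 ± 0.01 above it. The difference was -0.50 ± 0.19 for sugar transporters and -0.85 ± 0.03 for the pair of lactate transporters. The sign was the same in both libraries for the amino acid, nucleoside, sugar and lactate classes. When genes under the threshold were counted too, the median of the amino acid class relative to that of all matched genes was -0.40 ± 0.14, and that of the sugar class was -0.45 ± 0.02. It was 2.60 ± 0.02 for the metal class, 1.56 ± 0.15 for the nucleoside class and 0.01 ± 0.09 for the lactate class. The order of the classes thus depends on the threshold.

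The amino acid class was led by Slc6a6, the sodium- and chloride-coupled taurine transporter (mm10, chr6:91684053-91759066, plus strand), with 362 (replicate 1) and 350.3 TPM (replicate 2). It was the most abundant member of all classes, and on the log2(TPM + 1) scale it led the next amino acid gene by 0.88 ± 0.15 (SD, n = 2). That gene was Slc3a2, the heavy chain CD98 that carries several light-chain exchangers to the cell surface (chr19:8706882-8723369, minus strand), with 183 and 205 TPM. Slc43a2, a facilitated carrier of neutral amino acids also called LAT4 (chr11:75531694-75577575, plus strand), had 180.0 and 195 TPM. The replicate ranges of Slc3a2 and Slc43a2 overlapped, so their order is not resolved. An antisense gene, Gm45606, shares 922 exonic bases with Slc43a2 on the opposite strand and was given 15.9 and 28.4 TPM, and Gm44981 shares 117 exonic bases with Slc6a6 and was given 22.9 and 34.97 TPM.

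The light chains that pair with CD98 differed among themselves. Slc7a8, the LAT2 light chain, had 56.6 (replicate 1) and 58.2 TPM (replicate 2). Slc7a7, the y+LAT1 light chain for cationic and neutral amino acids, had 15.1 and 19.8 TPM. Slc7a5, the LAT1 light chain, stayed under the threshold in both libraries at 4.74 and 3.02 TPM, so the heavy chain and LAT2 passed it and LAT1 did not. Slc7a11, the cystine-glutamate exchanger xCT, had 9.25 TPM in replicate 1 but 2.55 TPM in replicate 2 and was therefore no member. The glutamine carrier Slc1a5 also passed in replicate 1 alone, with 6.09 against 4.38 TPM in replicate 2. Of the arginine carriers, Slc7a1 (CAT1) had 17.2 and 10.9 TPM and Slc7a2 (CAT2) 0.72 and 1.16 TPM.

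The Slc38 family gave 6 of the 15 amino acid members. Slc38a6 was highest among them with 90.9 (replicate 1) and 76.1 TPM (replicate 2), followed by Slc38a10 with 41.2 and 54.3 TPM. Slc38a9, the lysosomal arginine sensor that signals to mTORC1, had 51.6 and 38.9 TPM, a range that overlapped that of Slc38a10. Slc38a7, a lysosomal exporter of glutamine and asparagine as described in human cells, had 33.6 and 21.8 TPM. The sodium-coupled neutral amino acid transporters of the plasma membrane, Slc38a1 and Slc38a2, had 29.9 and 22.7 TPM and 28.2 and 19.7 TPM, with overlapping ranges. These 2 genes are neighbours on chromosome 15, on the same strand, with 44478 bases between them.

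Among the remaining amino acid members, Slc36a1, a proton-coupled transporter of small amino acids on lysosomes, had 28.6 (replicate 1) and 26.3 TPM (replicate 2). Its relative Slc36a4 had 14.8 and 10 TPM and was the lowest of the class. The aromatic amino acid transporter Slc16a10 (TAT1) had 25.1 and 26.5 TPM. From Slc38a7 down to Slc36a4, each gene's replicate range overlapped that of the next, so the lower part of the order is not resolved.

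**Figure D2:**
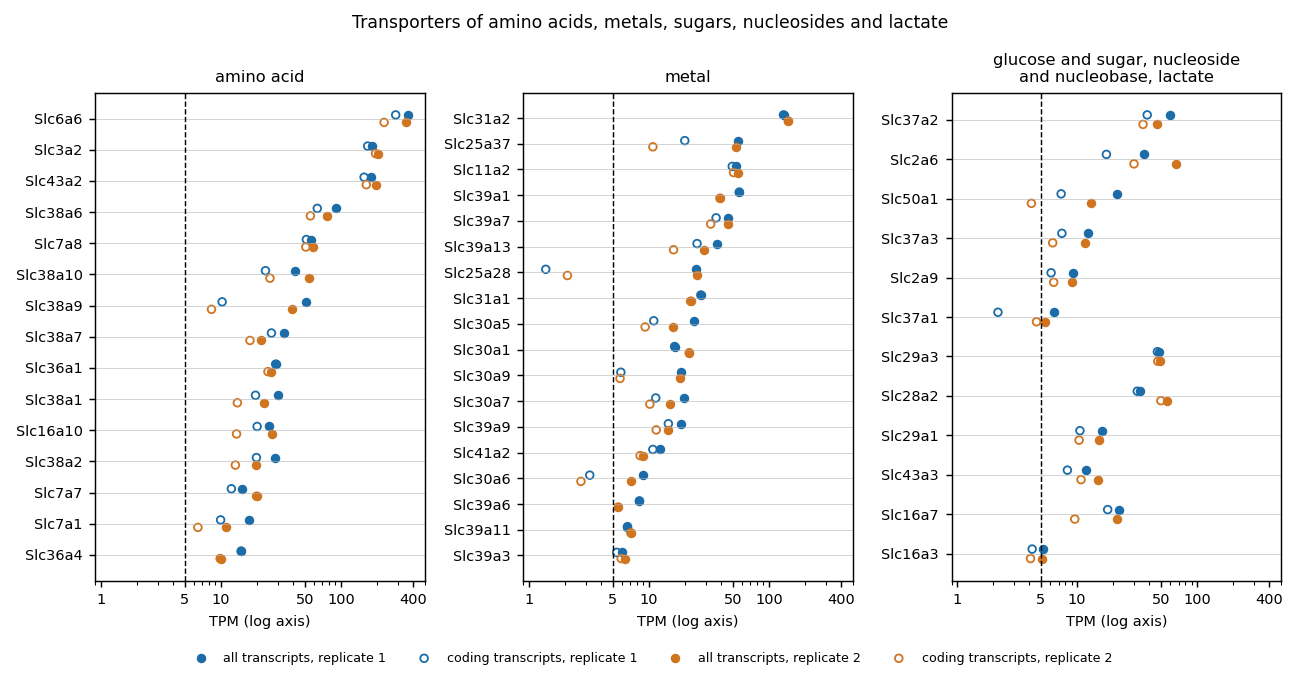
TPM (log axis) of the 45 members in the 5 named classes, for all transcripts of a gene (filled) and for its transcripts annotated protein_coding alone (open), in replicate 1 and replicate 2; the dashed line marks 5 TPM. Slc25a28 stands out with 24.5 and 25.0 TPM over all transcripts and 1.38 and 2.09 TPM over coding ones. Filled and open points of Slc31a2, whose annotated transcripts are all protein_coding, coincide by construction.

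The sugar class was led by Slc37a2 and Slc2a6. Slc37a2, a sugar-phosphate exchanger of the endoplasmic reticulum (chr9:37227585-37255738, minus strand), had 59.1 (replicate 1) and 46.3 TPM (replicate 2). Slc2a6, the hexose transporter GLUT6 of lysosomal membranes (chr2:27021363-27027998, minus strand), had 35.96 and 67.2 TPM. The order of the pair turned between the replicates, and the lead of Slc37a2 was 0.09 ± 0.87 on the log2 scale. Slc50a1, the SWEET-type sugar carrier, had 21.4 and 13.2 TPM, and Slc37a3 and Slc37a1, further members of the sugar-phosphate exchanger family, had 12.2 and 11.7 TPM and 6.48 and 5.38 TPM. Slc2a9 belongs to the glucose transporter family by sequence but is best known as a urate carrier, and it had 9.19 and 9.01 TPM.

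The textbook glucose carriers of macrophages were under the threshold in this nuclear RNA. Slc2a1 (GLUT1) had 4.06 (replicate 1) and 3.46 TPM (replicate 2). Slc2a3 (GLUT3) had 1.61 and 1.08 TPM. In both libraries Slc2a6 was therefore above Slc2a1, a comparison of levels per length within a library. Slc37a4, the glucose-6-phosphate carrier that works with glucose-6-phosphatase, just missed membership with 4.59 and 5.43 TPM.

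All 4 nucleoside and nucleobase members lay above 10 TPM in both libraries. Slc29a3, the equilibrative transporter ENT3 of lysosomes (chr10:60712072-60752794, minus strand), had 48.0 (replicate 1) and 49.5 TPM (replicate 2). Slc28a2, the sodium-coupled concentrative transporter CNT2 with a preference for purine nucleosides (chr2:122426477-122461137, plus strand), had 33.2 and 56.1 TPM. Slc29a3 was higher in replicate 1 and Slc28a2 in replicate 2, and the lead of Slc29a3 was 0.17 ± 0.49 on the log2 scale. The plasma-membrane transporter Slc29a1 (ENT1) had 16.02 and 15.2 TPM, and the purine nucleobase carrier Slc43a3 had 11.8 and 14.9 TPM. Their ranges did not overlap. Slc29a2 (ENT2) had 0.43 and 0.15 TPM, under 1 TPM in both.

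The metal class covered copper, iron, zinc and magnesium. Slc31a2, the copper transporter CTR2 of endosomes and lysosomes (chr4:62262562-62298411, plus strand), was highest with 132 (replicate 1) and 145 TPM (replicate 2). Slc31a1 (CTR1), the copper importer of the plasma membrane and its neighbour on chromosome 4 at a distance of 62315 bases, had 27.1 and 22.3 TPM. On the log2(TPM + 1) scale Slc31a2 led the next metal member, Slc25a37, by 1.33 ± 0.13. By normalised counts, which are not divided by length, the difference of that pair was -0.16 ± 0.24. Slc31a2 had 4200 and 5162 expected counts and Slc25a37 had 5314 and 5133.

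The iron carriers included both mitoferrins, which bring iron into mitochondria. Slc25a37 (mitoferrin 1; chr14:69241848-69285112, minus strand) had 55.5 (replicate 1) and 53.4 TPM (replicate 2), and Slc25a28 (mitoferrin 2) had 24.5 and 25.0 TPM. Slc11a2 (DMT1), which moves ferrous iron out of endosomes, had 53.2 and 55.6 TPM, a range that overlapped that of Slc25a37. Most of the TPM of both mitoferrins fell on transcripts not annotated as coding, as described with the transcript classes, and most of that of Slc11a2 did not.

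Zinc importers of the Slc39 family gave 7 members. Slc39a1 (ZIP1) had 56.6 (replicate 1) and 39.03 TPM (replicate 2). Slc39a7 (ZIP7), which releases zinc from the endoplasmic reticulum, had 45.2 and 46.0 TPM. Slc39a13 had 37.1 and 28.7 TPM, and Slc39a9, a Golgi member, had 18.6 and 14.4 TPM. The remaining 3 were near the threshold, Slc39a6 with 8.33 and 5.54 TPM, Slc39a11 with 6.62 and 7.07 TPM and Slc39a3 with 5.95 and 6.29 TPM. Slc39a14 (6.34 and 4.33 TPM) and Slc39a10 (7.02 and 3.67 TPM) passed in replicate 1 alone, and Slc39a8 was low with 1.86 and 1.06 TPM.

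Zinc exporters of the Slc30 family gave 5 members within a narrower band. Slc30a1 (ZnT1), the exporter of the plasma membrane (chr1:191906767-191913247, plus strand), had 16.4 (replicate 1) and 21.7 TPM (replicate 2). Slc30a5 and Slc30a6, which form a heterodimer in the secretory pathway, had 23.6 and 15.9 TPM and 8.89 and 7.07 TPM. Slc30a7 of the Golgi had 19.5 and 15.1 TPM, and Slc30a9 had 18.6 and 18.03 TPM. Apart from Slc30a6, the ranges of these genes overlapped in a chain. The magnesium carrier Slc41a2 had 12.3 and 8.90 TPM.

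The lactate class had 2 members, both of the monocarboxylate transporter family. Slc16a7 (MCT2; chr10:125219270-125389465, minus strand) had 22.4 (replicate 1) and 21.5 TPM (replicate 2). Slc16a3 (MCT4), the lactate exporter of glycolytic cells (chr11:120948480-120960868, plus strand), had 5.24 and 5.07 TPM, the lowest of the members just inside the threshold. The lead of Slc16a7 was 1.90 ± 0.01 on the log2(TPM + 1) scale. It rests in part on a transcript of 292 bases, Slc16a7-203, to which 7 expected counts gave 4.46 TPM in replicate 1 and 29 expected counts gave 12.0 TPM in replicate 2. Without transcripts of 300 bases or fewer, Slc16a7 had 17.98 and 9.56 TPM and its lead was 1.20 ± 0.57. Slc16a1 (MCT1) had 1.27 and 0.55 TPM and was no member.

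Of 12 other genes of solute transport, 10 reached 5 TPM in both libraries, a count that the hand-picked list does not allow to be set against other genes. Bsg, the chaperone of MCT1 and MCT4, had 42.7 (replicate 1) and 38.5 TPM (replicate 2), and Emb, the chaperone of MCT2, had 18.8 and 9.75 TPM. Ldha, which interconverts pyruvate and lactate, had 52.1 and 48.6 TPM. Those that missed the threshold were the metallothionein Mt2, with 1.21 and 0.91 TPM, and the arrestin Arrdc4, with 5.16 and 3.19 TPM. The metallothionein Mt1 had 12.8 and 5.07 TPM, and Mtf1, the zinc-sensing transcription factor, had 7.40 and 7.87 TPM.

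Outside the 5 classes, the peptide transporters Slc15a3 and Slc15a4 of endolysosomes, which export peptides and histidine, were prominent. Slc15a3 (chr19:10839727-10859362, plus strand) had 207 (replicate 1) and 239 TPM (replicate 2). The gene Tmem132a, on the opposite strand, shares 1541 exonic bases with it and was given 199 and 116 TPM. With no strand setting given, it cannot be told here how reads on the shared bases were divided between the pair. Slc15a4 had 66.3 and 55.1 TPM, but its value depends on a short transcript. The transcript Slc15a4-211 is 166 bases long, is annotated as a processed transcript and lies wholly within coding exons of the gene (chr5:127603781-127604607, minus strand). Its sequence, shown because a few reads on it carry a large part of the gene's TPM, is given 5′ to 3′ from GENCODE M21.
Slc15a4-211: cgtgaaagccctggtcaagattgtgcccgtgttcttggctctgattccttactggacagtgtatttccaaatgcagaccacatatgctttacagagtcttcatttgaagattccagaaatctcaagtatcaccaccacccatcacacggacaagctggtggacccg

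In replicate 1, 4.34 expected counts on Slc15a4-211 gave 36.98 TPM, and in replicate 2, 5.21 expected counts gave 15.8 TPM. The gene had 1094 and 2123 expected counts in all. Transcripts of 300 bases or fewer thus held 55.8% of its TPM in replicate 1 and 30.98% in replicate 2, and without them the gene had 29.3 and 38.01 TPM. The order of the replicates turned with this change. Slc15a4, Slc16a7 and Slc37a1 were the members with over 20% of their TPM on such transcripts in a replicate, and 103 of the 104 members kept 5 TPM in both libraries without them, the exception being Slc37a1 with 6.48 and 3.69 TPM.

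The 21 members placed by family in the mitochondrial carrier class, which leaves out the mitoferrins, may include genes with another role or site. They were led by Slc25a3, the phosphate carrier that feeds ATP synthesis, with 137 (replicate 1) and 90.4 TPM (replicate 2). Slc25a36, a pyrimidine nucleotide carrier, had 70.9 and 42.1 TPM, and Slc25a5, the ADP/ATP carrier ANT2, had 47.9 and 51.0 TPM. Slc25a5 lies 18448 bases from another member, Slc25a43, on the X chromosome. The class had a median of 16.4 and 14.2 TPM.

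The 17 members placed by family in the inorganic ion class were led by Slc9a9, an endosomal sodium-proton exchanger, with 88.1 (replicate 1) and 57.6 TPM (replicate 2). Assignment by family also placed Slc13a3 here, with 43.26 and 32.25 TPM, and some families carry other substrates too. The phosphate importer Slc20a1 (PiT1) had 49.98 and 33.96 TPM. Nucleotide-sugar carriers of the Golgi were uniformly low to moderate, with Slc35a3 at 21.9 and 13.2 TPM, Slc35a4 at 17.3 and 13.3 TPM and Slc35a2 at 11.6 and 9.16 TPM.

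Among the 12 members with other substrates, the vitamin C transporter Slc23a2 had 64.2 (replicate 1) and 78.2 TPM (replicate 2). Slc16a6, a relative of the lactate carriers, had 57.1 and 62.3 TPM, and Slc27a1, a fatty acid transport protein, had 45.5 and 53.4 TPM. On transcripts annotated protein_coding alone, Slc27a1 had 4.66 and 0.72 TPM. The name pattern also took in 3 genes that are no transporters. Slc9a3r1, the scaffold NHERF1, had 25.6 and 33.6 TPM, Slc7a6os, which is named for lying opposite Slc7a6, had 19.4 and 16.4 TPM, and Slc4a1ap, the adaptor kanadaptin, had 16.9 and 10.9 TPM.

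The members just inside the threshold were Slc16a3, Slc37a1 with 6.48 and 5.38 TPM, and Slc39a6 with 8.33 and 5.54 TPM. Just outside were Slc25a30 with 6.21 and 4.82 TPM, Slc10a1 with 5.85 and 4.61 TPM, and Slc37a4. In all, 11 matched genes reached 5 TPM in 1 library only.

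The replicates are the only samples, so their ratio shows how firmly a level is known. It was computed as replicate 2 over replicate 1 from CPM scaled with trimmed means of M values (TMM), with 0.5 CPM added. The members' median log2 ratio was 0.10, against 0.04 for all expressed protein-coding genes, and 87 of 104 members lay within 1.5-fold. The count within 1.5-fold was not made over all expressed genes. Over 2-fold higher in replicate 2 were 3 members (2.88%), against 3.30% of all 7581 genes with at least 5 TPM in both libraries, and no member was over 2-fold lower, against 0.607%. The members' share past 2-fold was thus close to the background in the upward direction.

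The 3 were Slc2a6, Slc12a9 and Slc15a4. Slc2a6 had 72.1 CPM in replicate 1 and 169 CPM in replicate 2, a log2 ratio of 1.22. Slc12a9, a relative of the cation-chloride cotransporters, had 43.8 and 101 CPM, a log2 ratio of 1.20. For Slc15a4, 52.4 and 113 CPM gave a log2 ratio of 1.10, whereas its TPM as deposited gave -0.26. The cause of the gap between the measures was not tested. The next were the mitochondrial glutamate carrier Slc25a22 with 0.99 and Slc28a2 with 0.97.

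At the low end were Slc25a40 with a log2 ratio of -0.86, Slc25a24 with -0.66 and Slc25a46 with -0.63, placed by family in the mitochondrial carrier class. The bicarbonate cotransporter Slc4a7 with -0.69 and the choline transporter Slc44a1 with -0.55 also lay there. By TPM as deposited the members' median log2 ratio was -0.12, against -0.23 for expressed protein-coding genes, and 26 members changed sign between the measures. Directions between the replicates therefore depend on the measure for those 26 genes, and the cause was not tested. Changes of sign were not counted over all expressed genes. Across the 104 members, log2(TPM + 1) of the replicates had a Pearson correlation of 0.949, against 0.951 across all expressed protein-coding genes, and both come from the same pair of libraries.

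**Figure D3:**
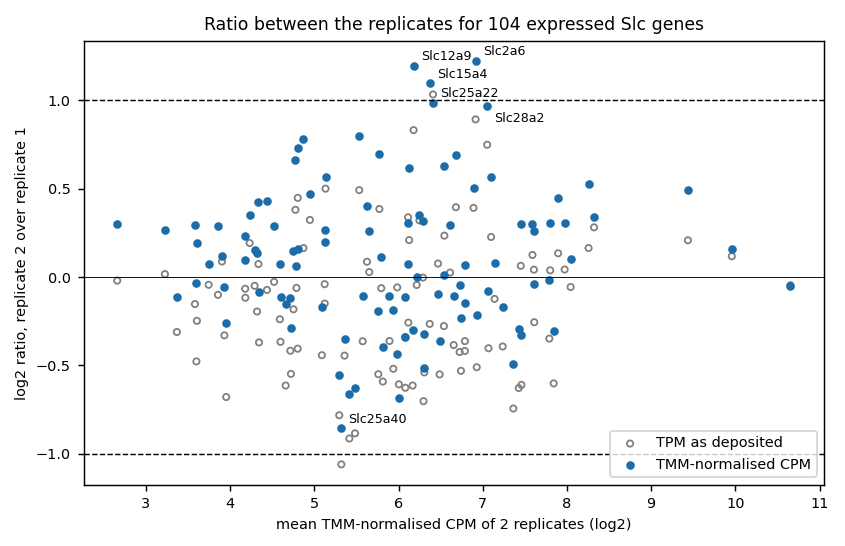
Log2 ratio of replicate 2 over replicate 1 for the 104 members against their mean TMM-normalised CPM (log2), for TMM-normalised CPM (filled) and for TPM as deposited (open); dashed lines mark a 2-fold difference in each direction. Filled points of Slc2a6, Slc12a9 and Slc15a4 lie above the upper line, and no filled point lies below the lower one.

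Nuclear RNA can hold transcripts that are not finished messages, so the share of each gene's TPM on transcripts not annotated protein_coding was taken from the kallisto-layout transcript table. The rule used the other table's TPM per gene, and both tables come from the same reads. The median share outside coding transcripts was 33.95% in replicate 1 and 34.9% in replicate 2 over the members, against 36.8% and 36.98% over all expressed protein-coding genes. Most TPM, at least 50% in both libraries, lay outside coding transcripts in 23 members (22.1%), against 29.2% of 6798 expressed protein-coding genes. By kallisto-layout estimated counts, which are not divided by length, only 9 members had such a share. No share over all expressed protein-coding genes was computed by counts. Of the 23 members by TPM, 6 were among 18 metal transporters, 6 among 17 in the inorganic ion class and 4 among 21 in the mitochondrial carrier class. The 5 named classes, with 45 members, held 9 of the 23. None of the 4 nucleoside or 2 lactate members was among them, but these classes are too small to read this as a trait. The lactate member Slc16a7 had 27.3% in replicate 1 and 55.3% in replicate 2. In 13 members the share was under 5% in both libraries, a count not made over all expressed protein-coding genes. For 9 members (8.65%), against 13.4% of expressed protein-coding genes, every annotated transcript is protein_coding, so their share is fixed by the annotation. Slc31a1, Slc31a2, Slc30a1 and Slc39a1 are among these 9.

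The highest shares belonged to Slc25a28, with 95.9% in replicate 1 and 85.0% in replicate 2, Slc4a7 with 91.3% and 91.2%, Slc27a1 with 90.1% and 92.0%, Slc10a7 with 88.3% and 76.2%, and Slc25a12, a mitochondrial aspartate-glutamate carrier, with 85.1% and 90.6%. By estimated counts the shares were 98.4% and 91.4% for Slc25a28, 79.6% and 75.1% for Slc4a7, and 90.0% and 93.5% for Slc27a1. They were lower for Slc10a7, with 54.9% and 44.6%, and for Slc25a12, with 34.4% and 55.5%. In the RSEM-layout transcript table the shares of Slc25a28 were 94.4% and 91.6%, but those of Slc10a7, a relative of the bile acid transporters, were 54.3% and 38.2%. A transcript of Slc10a7 of 121 bases held 71.6% and 53.0% of its kallisto-layout TPM and 0 counts in the RSEM layout. By the RSEM layout 14 members had most TPM outside coding transcripts in both libraries, 12 of them among the 23. The other 2 were Slc2a6 and Slc15a4. No share over all expressed protein-coding genes was computed for this layout. Slc38a9 is one of the 12, with 51.6 and 38.9 TPM in all and 10.2 and 8.36 TPM on coding transcripts. By estimated counts its share outside coding transcripts was 41.9% and 36.3%.

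**Figure D4:**
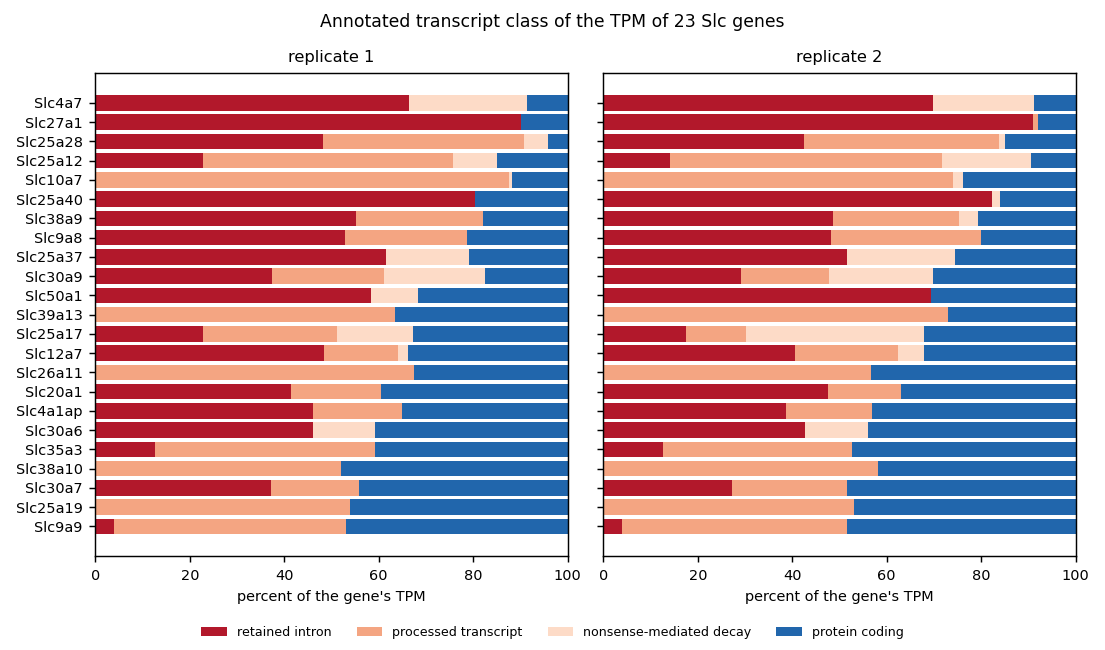
Share in percent of each gene's kallisto-layout TPM on transcripts annotated as retained intron, processed transcript, nonsense-mediated decay and protein coding, for the 23 members with at least 50% outside protein coding in both replicates; the left panel is replicate 1 and the right panel replicate 2. Retained introns fill 90.1% and 91.1% of the bar of Slc27a1 and none of the bar of Slc39a13. By estimated counts, 25.8% and 31.8% of Slc39a13 lay outside protein coding.

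Retained-intron transcripts alone held at least 50% of the TPM in both libraries for 5 members (4.81%), Slc27a1, Slc25a37, Slc4a7, Slc25a40 and Slc50a1, against 11.2% of expressed protein-coding genes. The median retained-intron share was 11.9% in replicate 1 and 12.8% in replicate 2 over members, against 17.9% and 18.6%. Their retained-intron shares were 90.1% and 91.1% for Slc27a1, 80.3% and 82.3% for Slc25a40 and 66.4% and 69.9% for Slc4a7. In Slc25a37, 1 transcript, Slc25a37-203, held all of it, with 61.6% and 51.6% of the gene's TPM. For 4 of these genes the junction between coding exon and retained intron could be placed in the annotation, and the 30 bases around the splice donor are shown, 5′ to 3′ on the gene's strand, with the end of the exon in capitals and the start of the intron in lower case.
Slc25a37, chr14:69249379-69249408, minus strand: GCCATCTAGCTAATGgtattttgaaagcgt
Slc50a1, chr3:89270047-89270076, minus strand: CACCACGGATGTCAAgtgagagtgttgttg
Slc4a7, chr14:14786409-14786438, plus strand: AAAAAAGAGAAAGAGgtaaaaaggcatccc
Slc25a40, chr5:8440774-8440803, plus strand: CCTCCCTCCTACTCTgtaagttgaaattca

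Each window carries GT at the first bases of the intron, the usual splice donor. The intron of Slc25a37 is 1756 bases long, that of Slc50a1 111 bases, that of Slc25a40 1658 bases and that of Slc4a7 4643 bases, and only for Slc4a7 does the annotated transcript not hold the whole intron. The transcripts shown held 26.3% and 37.6% of the TPM of Slc50a1, 21.1% and 15.5% of that of Slc4a7, and 31.7% and 31.3% of that of Slc25a40. An intron counts here only where an annotated transcript retains it.

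When TPM on protein_coding transcripts alone was held to the same 5 TPM, 89 members passed in both libraries and 15 did not. The same count was not made over all expressed protein-coding genes, so these numbers have no background. The 15 included Slc16a3 with 4.22 and 4.09 TPM, Slc50a1 with 7.36 and 4.16 TPM, Slc37a1 with 2.19 and 4.59 TPM, Slc30a6 with 3.21 and 2.71 TPM, and Slc25a28 with 1.38 and 2.09 TPM. They also included Slc25a12, Slc25a40, Slc25a43, Slc26a11, Slc27a1, Slc35a5, Slc4a7, Slc9a7 and Slc9a8. Slc25a37 fell to 19.9 and 10.8 TPM on coding transcripts, and the lead of Slc31a2 over it then became 3.15 ± 0.68 on the log2 scale. Coding transcripts of Slc6a6 held 286 and 229 TPM and those of Slc3a2 167 and 195 TPM, so their lead narrowed to 0.50 ± 0.38.

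Overlapping genes limit some levels. Exonic bases were shared with another gene by 37 members, 33 of them with a gene on the opposite strand and 6 with one on the same strand, and the partner had at least 5 TPM in both libraries for 11. Expected counts were not whole, beyond a tolerance of 0.005, for 32 members, which in this layout occurs where reads are divided between genes. Neither the overlaps nor the counts that were not whole were counted over all expressed genes, so these numbers have no background.

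Promoter sequences of RefSeq, running 250 bases before to 50 after the annotated start on GRCm38.p6, were matched by symbol for 82 of the 104 members. Where a symbol had several windows, such as 8 for Slc29a1 and 5 for Slc7a7, only the first listed was read. Their median GC content was 63.0%, against 61.7% for 5476 promoters of expressed protein-coding genes and 52.7% for all 27025 promoters. The letters CACGTGAC, the core of the CLEAR motif found in lysosomal genes, stood on either strand in 6 member promoters (7.32%), against 5.42% of expressed and 2.33% of all promoters. The metal response element, TGCACNC or TGCGCNC, stood in 31 (37.8%), against 35.7% and 25.6%. An AP-1 motif, TGANTCA, stood in 8.54% against 4.80% and 7.93%, and a TATA box, TATAAA, in 3.66% against 6.48% and 14.2%. Both strands were searched for every motif, and matches of different motifs could overlap. The members' shares lay nearer to those of expressed genes than to those of all promoters for the CLEAR, metal response and TATA motifs.

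The 6 promoters with CACGTGAC were those of Slc12a7, Slc20a1, Slc31a2, Slc35a5, Slc36a1 and Slc37a3. The promoters of Slc29a3, Slc38a9, Slc38a7, Slc2a6 and Slc15a4, also named above as lysosomal or endolysosomal, held no such match. The promoters of the lysosomal carriers Slc31a2 and Slc36a1 are printed, plus strand, with the motif in capitals. They are examples of a letter match in a metal and an amino acid carrier. The promoter of the zinc exporter Slc30a1 is printed beside them with its matches to the metal response element in capitals, both on the minus strand. A match is a description of letters and shows no binding.
Slc31a2, chr4:62286179-62286478: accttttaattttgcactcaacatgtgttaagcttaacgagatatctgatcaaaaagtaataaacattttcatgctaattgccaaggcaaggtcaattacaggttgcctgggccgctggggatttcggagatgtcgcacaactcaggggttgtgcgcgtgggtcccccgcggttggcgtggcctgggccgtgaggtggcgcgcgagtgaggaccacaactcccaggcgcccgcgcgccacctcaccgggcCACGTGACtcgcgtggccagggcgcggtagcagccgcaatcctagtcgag
Slc36a1, chr11:55204090-55204389: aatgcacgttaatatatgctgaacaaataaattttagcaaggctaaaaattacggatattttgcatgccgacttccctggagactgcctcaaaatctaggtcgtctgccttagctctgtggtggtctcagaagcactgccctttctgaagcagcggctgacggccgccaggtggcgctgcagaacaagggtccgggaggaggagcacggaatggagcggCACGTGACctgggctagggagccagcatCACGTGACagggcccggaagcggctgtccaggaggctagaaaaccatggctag
Slc30a1, chr1:191906531-191906830: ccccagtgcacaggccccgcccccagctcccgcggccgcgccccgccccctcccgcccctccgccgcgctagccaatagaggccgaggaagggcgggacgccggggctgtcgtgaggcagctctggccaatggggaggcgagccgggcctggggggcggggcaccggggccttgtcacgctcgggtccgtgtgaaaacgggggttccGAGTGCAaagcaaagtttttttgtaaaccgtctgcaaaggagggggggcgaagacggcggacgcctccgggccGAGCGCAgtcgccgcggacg

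In Slc31a2 the match begins at the annotated first base of the RefSeq transcript, and in Slc36a1 both matches begin before the start. The window of Slc31a2 lies inside the gene interval given above and not at its first base. In Slc30a1 the matches lie on either side of the start.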

How the data were processed

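Ribosomal-RNA-depleted nucleoplasmic RNA of lipid A-treated mouse macrophages was measured in 2 libraries. The deposited expected counts and TPM per gene and per transcript refer to mm10 with GENCODE M21, per the file headers and labels. Estimated counts with their own TPM per transcript stand in a second deposited table. Their columns have the layouts of RSEM and kallisto, and the text names them so. Neither the programs nor the setting for strand is given in the sources used here.

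Members, classes and lists were chosen with earlier results of these data known. Named are all members of the 5 classes, the 3 highest of each other class, the 5 largest replicate ratios in each direction, the 5 highest noncoding shares, genes beside the threshold and genes that are no transporters. A gene that this rule names is not reported here. Expected counts were rounded to whole numbers for TMM factors (edgeR 4.0.16 in R 4.3.3, filterByExpr). DESeq2 1.42.0 size factors were an alternative. The TMM step was tested on simulated data. Class medians and leads used log2(TPM + 1), which understates differences of low genes. With 1 group there was no test and no p-value. Effective lengths are very small for short transcripts, so a few reads can give a high TPM. Coordinates are 1-based. Python 3.11.15 with pandas 2.3.3 was used for the rest.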

Additional observations from a re-analysis of the deposited data

How the results depend on the processing

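No paired analysis was possible because the 2 libraries form 1 group. The number of members was 104 and stayed between 80 and 121 with the posterior mean TPM, TPM rescaled to protein-coding genes and thresholds of 3 or 10 TPM, and between 106 and 113 without 1 of the replicates. It was 39 with the kallisto-layout TPM as deposited and 114 after these were rescaled to protein-coding genes.

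The rescaling, coding transcripts alone and transcripts over 300 bases alone were alternatives chosen after seeing the data. With TMM-normalised CPM, which is not divided by length, class medians relative to all members were -1.21 for sugar, 1.20 for amino acid, 0.06 ± 0.51 for nucleoside, 0.16 for metal and -1.0 for lactate transporters, and the leads were 1.00 for Slc37a2, 2.42 for Slc6a6, 0.99 for Slc29a3, -0.16 for Slc31a2 (reversed) and 2.14 for Slc16a7. With coding transcripts alone the medians were -0.81 for sugar, 0.72 for amino acid, 0.65 for nucleoside, -0.12 for metal (reversed) and -0.69 for lactate, and the leads were 0.50 for Slc6a6, 3.15 for Slc31a2 and 1.46 for Slc16a7. With the kallisto-layout TPM the medians were 0.79 for amino acid, -0.12 for metal (reversed) and -0.55 for lactate, and the lead of Slc16a7 was 1.14. The leads of Slc37a2 and Slc29a3 turned sign there, to -0.34 ± 0.64 and -0.27 ± 0.40, within the spread of the replicates. With the posterior mean TPM the metal median was -0.04 (reversed), the lactate median -0.80 and the lead of Slc16a7 1.72. With a pseudocount of 0.1 the lactate median was -0.93 and the lead of Slc16a7 2.07. With no filter the medians were -0.40 for amino acid (reversed), 1.56 for nucleoside, 2.60 for metal and 0.01 for lactate (reversed). With transcripts over 300 bases alone the medians were 0.03 for metal and -1.18 for lactate, and the lead of Slc16a7 was 1.20. The cause of these shifts was not tested.

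Without 1 of the replicates the medians ranged between -0.63 and -0.37 for sugar, 0.41 and 0.64 for amino acid, 0.12 and 0.46 for nucleoside, 0.00 and 0.02 for metal and -0.87 and -0.83 for lactate, and the leads between -0.53 and 0.70 for Slc37a2, 0.77 and 0.98 for Slc6a6, -0.18 and 0.52 for Slc29a3, 1.24 and 1.43 for Slc31a2 and 1.89 and 1.91 for Slc16a7. Members over 2-fold higher in replicate 2 numbered 3 with DESeq2 size factors, 1 by TPM and 5 by kallisto-layout counts, and those over 2-fold lower numbered 1 by TPM. Members with most TPM outside coding transcripts numbered 23, 14 by the RSEM layout, 9 by estimated counts and between 25 and 31 in a single replicate. The kallisto-layout level lay outside the spread of the replicates for 99 members as deposited and for 58 after rescaling, so levels near the threshold are not firm.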
